A study of Homo sapiens with 6 samples.

Results

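R3HDM1, R3HDM2 and R3HDM4 are 3 of the 28395 genes in the counts table, matched by symbol to the Entrez IDs 23518, 22864 and 91300, and all 3 passed the filter on low counts. They were brought together because they share a name and the R3H domain, and R3HDM2 was singled out by its own fold change in these libraries. The differences of the 3 members between the vectors are therefore described with no p of their own, and how many of them passed a test over all genes is given beside the background alone. RNA came from TC28a2 cells, an immortalised human chondrocyte line, collected 48 h after transfection with a control vector (3 libraries) or a vector that overexpresses ZEB1 (3 libraries). ZEB1 is a zinc finger transcription factor best known as a repressor in epithelial to mesenchymal transition. No other allele or agent is named in the labels, and the promoter of the vector is not given in the sources used here. Sequencing used DRUG-seq, a low-cost RNA-seq for many samples at once. Whether replicates were separate cultures is not said in the labels, so the spread between them, and any p resting on it, may be technical.

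The R3H domain is a short fold, named for a conserved arginine and histidine, that binds single-stranded nucleic acids. R3HDM1 and R3HDM2 also carry a SUZ domain, an RNA-binding stretch that they share with ARPP21, a relative known from neurons. Beyond predicted RNA binding, little is established about what R3HDM2 and R3HDM4 do. Other proteins with an R3H domain include the poly(A) ribonuclease PARN and the RNA helicases IGHMBP2 and YTHDC2. An intron of R3HDM1 carries the microRNA gene MIR128-1, and an intron of ARPP21 carries MIR128-2, on the host's strand in GENCODE v29. Both give the same main mature microRNA, shown here with its seed (bases 2 to 8) in capitals because it is the feature that these relatives share at the level of the gene.
hsa-miR-128-3p: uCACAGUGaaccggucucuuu
The counts table held 0 counts for MIR128-1 and MIR128-2 in all 6 libraries, which says nothing of the mature microRNA.

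R3HDM2 lies at chr12:57253764-57431141 and R3HDM4 at chr19:896503-913219, both on the minus strand, and R3HDM1 at chr2:135531484-135725269 on the plus strand (RefSeq, GRCh38.p14). The bases before the first annotated start of each gene are shown because ZEB1 is known to bind E-box-like sequences. The motifs searched, each on both strands, were CACCTG (reverse complement CAGGTG) and CAGGTA (reverse complement TACCTG). They do not overlap each other in any of these windows, and capitals mark every match.
R3HDM2 (chr12:57431142-57431293, minus strand): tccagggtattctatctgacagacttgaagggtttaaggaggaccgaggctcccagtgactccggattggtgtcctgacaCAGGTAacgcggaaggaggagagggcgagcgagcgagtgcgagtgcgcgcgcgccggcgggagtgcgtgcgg
R3HDM1 (chr2:135531234-135531454, plus strand): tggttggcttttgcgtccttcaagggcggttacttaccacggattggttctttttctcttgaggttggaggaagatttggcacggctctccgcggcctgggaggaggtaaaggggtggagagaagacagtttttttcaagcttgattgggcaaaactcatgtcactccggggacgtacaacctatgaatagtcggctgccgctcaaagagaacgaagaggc
R3HDM4 (chr19:913246-913469, minus strand): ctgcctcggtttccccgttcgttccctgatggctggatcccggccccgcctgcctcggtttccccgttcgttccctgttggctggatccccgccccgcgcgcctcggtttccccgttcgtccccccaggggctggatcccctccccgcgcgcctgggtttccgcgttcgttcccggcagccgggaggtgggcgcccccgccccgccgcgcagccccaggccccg
R3HDM2 held 1 match, CAGGTA, whose first base is 170 bases before the start that RefSeq lists for that window, chr12:57431043, which lies inside the gene edge given above. The printed bases of R3HDM1 and R3HDM4 held no match to either motif, and neither did their full windows. RefSeq lists 2 further starts inside R3HDM2. The window of the innermost start held CACCTG, 9 bases after the start (chr12:57341752-57341773, minus strand).
R3HDM2, innermost start: gctatccgCACCTGgctggtga
Of all 35116 promoter windows in the RefSeq table, 7.99% held CAGGTA and 17.5% held CACCTG in the 250 bases before the start. With the 50 bases after the start included, the shares were 9.83% and 20.6%. Among tested genes with a window, the 906 whose windows held CAGGTA had a median log2 fold change of -0.006 and the 8233 without it -0.019. A log2 fold change of -1 or lower, the side on which R3HDM2 lies, was found in 4.75% and 3.01% of them. For CACCTG the medians were -0.020 in 2079 genes with it and -0.018 in 7060 without, and the shares at -1 or lower were 3.99% and 2.95%. The ZEB1 libraries all lay below the controls in 7.17% of genes with CAGGTA and 8.27% without. With and without CACCTG these shares were 8.23% and 8.14%. These differences were not tested. R3HDM2 is itself among the genes with each motif, and shares on the upper side were not computed. A match is a description of letters, and binding of ZEB1 was not measured.

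The control libraries held 5359200 to 5878640 counts and the ZEB1 libraries 1277632, 1621270 and 3316228 in replicates 1, 2 and 3. ZEB1 itself had 114 to 203 counts per control library and 13805 to 23143 per ZEB1 library, so the libraries matched their labels. Of 9 markers of chondrocytes, SOX9 alone had enough counts to be tested, and COL9A1 and CNMD had 0 counts in every library. The summed level of the 9 markers was 55.9 to 85.8 CPM (counts divided by library depth after TMM scaling in edgeR) in the controls and 60.8 to 77.9 CPM with the ZEB1 vector. Of 4 endothelial markers PECAM1 alone had enough counts to be tested. Their summed level was 1.44 to 2.76 CPM under the control vector against 3.54 to 8.61 CPM under the ZEB1 vector. PECAM1 itself ran from 1.09 to 1.79 CPM and from 3.54 to 7.68 CPM (edgeR adjusted p = 0.462). CDH5, VWF and KDR had at most 4 counts in any library, so the sums show no shift of endothelial markers as a group. The 5 leukocyte markers summed to 9.81 to 15.3 CPM under the control vector against 5.31 to 14.5 CPM under the ZEB1 vector, with CD3E at 0 throughout. The 3 neuronal markers summed to 2.27 to 8.35 CPM under the control vector against 0 to 5.76 CPM under the ZEB1 vector, with RBFOX3 at 0 throughout. The 3 epithelial markers stayed at 0.812 to 2.72 CPM and 1.19 to 1.92 CPM. The part of the endothelial markers in the results on the members was not tested.

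R3HDM2 was lower in every ZEB1 library than in every control library. Control replicates 1, 2 and 3 held 181, 126 and 213 R3HDM2 counts, which is 28.9, 22.9 and 34.6 CPM. ZEB1 replicates 1, 2 and 3 held 8, 15 and 25 counts, which is 7.08, 9.60 and 7.42 CPM. The highest ZEB1 library thus lay below the lowest control, and the 3 ZEB1 libraries lay close together. Mean levels were 28.8 ± 5.87 CPM under the control vector and 8.03 ± 1.37 CPM under the ZEB1 vector (± SD, n = 3 libraries each). The log2 fold change, ZEB1 vector minus control vector, was -1.84 (SE 0.37), or 3.59-fold lower. In bulk RNA, a loss of cells that express the gene and less RNA per cell cannot be told apart.

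Counting error alone is wide for R3HDM2 in the shallower libraries. An exact 95% Poisson interval ran from 3.06 to 13.9 CPM in ZEB1 replicate 1, from 5.37 to 15.8 CPM in replicate 2 and from 4.80 to 10.95 CPM in replicate 3. The lowest control interval, that of replicate 2, began at 19.1 CPM, above the upper ends of the 3 ZEB1 intervals. These intervals treat reads as independent and leave out the spread between libraries. When all libraries were thinned to 1277632 counts, R3HDM2 had 33, 25 and 47 counts under the control vector against 8, 9 and 10 under the ZEB1 vector. These are the same reads that singled the gene out, thinned, and are given as a description.

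R3HDM1, the closest relative of R3HDM2 among the members by domain content, did not separate the groups. It had 195, 113 and 120 counts in control replicates 1, 2 and 3, which is 31.2, 20.5 and 19.5 CPM. In ZEB1 replicates 1, 2 and 3 it had 23, 34 and 138 counts, which is 20.4, 21.8 and 41.0 CPM. ZEB1 replicates 1 and 2 lay within the control range and replicate 3 lay above it. Mean levels were 23.7 ± 6.45 CPM under the control vector and 27.7 ± 11.5 CPM under the ZEB1 vector (± SD, n = 3 libraries each), for a log2 fold change of 0.27 (SE 0.33). ZEB1 replicate 3 set this direction, and without it the log2 fold change was -0.18 (SE 0.36). With ZEB1 replicate 3 as the only ZEB1 library it was 0.78 (SE 0.31), on the assumption that a lone library varies like the controls.

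R3HDM4, a smaller gene of unknown role, also overlapped between the groups. It had 104, 110 and 72 counts in control replicates 1, 2 and 3, which is 16.6, 19.97 and 11.7 CPM. In ZEB1 replicates 1, 2 and 3 it had 16, 23 and 36 counts, which is 14.2, 14.7 and 10.7 CPM. ZEB1 replicate 3 lay below the control range and ZEB1 replicates 1 and 2 within it. Mean levels were 16.1 ± 4.16 CPM under the control vector and 13.2 ± 2.19 CPM under the ZEB1 vector (± SD, n = 3 libraries each), for a log2 fold change of -0.31 (SE 0.39).

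**Figure D1:**
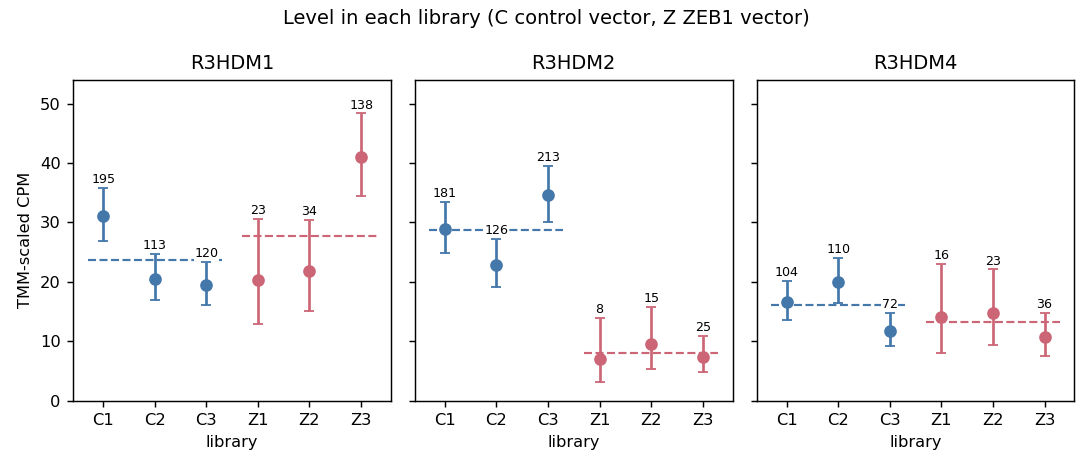
TMM-scaled CPM of R3HDM1, R3HDM2 and R3HDM4 (vertical axis) in the 3 control vector libraries (C1 to C3, blue) and the 3 ZEB1 vector libraries (Z1 to Z3, red). Bars are exact 95% Poisson intervals, which cover counting error only, dashed lines are group means and the small figures are raw counts. R3HDM2 runs from 22.9 to 34.6 CPM in the controls and from 7.08 to 9.60 CPM under the ZEB1 vector, while R3HDM1 and R3HDM4 overlap.

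With the edgeR quasi-likelihood test over all 11329 tested genes, 0 of the 3 members passed an adjusted p of 0.05, where 0.00883% of all genes did. That percentage is 1 gene, ZEB1. R3HDM2 was the 1 member of 3 whose ZEB1 libraries all lay below the controls, as in 8.17% of all tested genes, and 0 members lay above, against 6.96%. With no filter on low counts R3HDM2 was the 1 member called, beside 0.693% of genes, and likewise without ZEB1 replicate 3, beside 3.38%. With limma-voom 0 of 3 members were called, beside 0.512% of genes. DESeq2 called 7.49% of the 2324 genes to which it gave an adjusted p, and the members were not among these 2324. Nothing is read from these counts, since R3HDM2 was chosen on this contrast. Among the 7743 tested genes whose mean count reached 50, R3HDM2 had the lowest log2 fold change, and the next lowest was -1.69. This place goes with how R3HDM2 was chosen, and it reached that mean count only through its control libraries. Over all tested genes, whatever their count, 0.565% had a lower value than R3HDM2, 75.3% a lower value than R3HDM1 and 22.8% a lower value than R3HDM4. The median over all tested genes was -0.01.

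The members' shares of their own summed counts compare them within a library, without scaling between libraries. R3HDM2 made up 37.7%, 36.1% and 52.6% of the 3 genes' counts in control replicates 1, 2 and 3. With the ZEB1 vector its share was 17.0%, 20.8% and 12.6% of 47, 72 and 199 counts. The exact 95% binomial intervals were 7.65 to 30.8%, 12.2 to 32.0% and 8.30 to 18.0%, and the lowest control interval began at 31.1%, inside the interval of ZEB1 replicate 2. R3HDM1 took 29.6 to 40.6% in the controls and 47.2 to 69.3% with the ZEB1 vector. The shares in a library are parts of one sum, so a lower share of R3HDM2 raises the others. In CPM, R3HDM1 overlapped between the groups. The share of R3HDM4 was 17.8 to 31.5% and 18.1 to 34.0%, so R3HDM2 had the largest or the second largest share in each control library and the smallest in each ZEB1 library. Counts can depend on the length and annotation of a gene, and how far they do so here was not tested. A share is therefore no measure of the number of molecules.

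**Figure D2:**
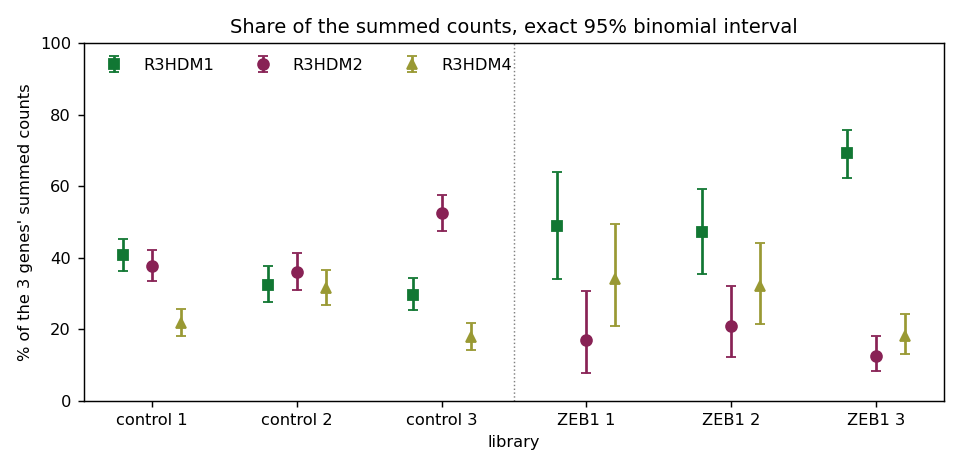
Share of the summed R3HDM1, R3HDM2 and R3HDM4 counts that each gene took (vertical axis, percent) in each of the 6 libraries (horizontal axis), with exact 95% binomial intervals for counting error. R3HDM2 (circles) takes 36.1 to 52.6% in the controls and 12.6 to 20.8% with the ZEB1 vector. R3HDM1 (squares) takes 29.6 to 40.6% and 47.2 to 69.3%. The shares in a library are parts of one sum, so a lower share of R3HDM2 raises the others.

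As a description, CPM was also divided by the length of all annotated exons in GENCODE v29. These lengths were 7.90 kb for R3HDM1, 5.903 kb for R3HDM2 and 2.96 kb for R3HDM4. In the controls R3HDM4 had 5.44 ± 1.41, R3HDM2 4.88 ± 0.99 and R3HDM1 3.00 ± 0.82 CPM per kb (SD, n = 3). The levels of R3HDM4 and R3HDM2 differed by less than their spread. Those of R3HDM2 and R3HDM1 differed by more than either SD, and their control libraries did not all separate, since the highest R3HDM1 value was 3.94 and the lowest R3HDM2 value 3.88. With the ZEB1 vector the order was R3HDM4 at 4.46 ± 0.74, R3HDM1 at 3.51 ± 1.46 and R3HDM2 at 1.36 ± 0.23 CPM per kb (SD, n = 3). R3HDM2 was then below every ZEB1 library of its 2 relatives, whose lowest values were 2.58 for R3HDM1 and 3.61 for R3HDM4. Without the division, mean control levels were 28.8 CPM for R3HDM2, 23.7 for R3HDM1 and 16.1 for R3HDM4. The first place of R3HDM4 thus rests on the division. Where reads come mainly from the 3′ end, division by length overstates short genes. No order of levels among the 3 genes is therefore read from the values per kb.

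The spread within groups differed among the members. In log2 CPM, the SD over the 3 ZEB1 libraries was 0.22 for R3HDM2, 0.24 for R3HDM4 and 0.55 for R3HDM1. Genes of like mean count over the 6 libraries (within 1.5 times) had a median SD of 0.46, 0.56 and 0.44 for these comparisons. R3HDM2 and R3HDM4 thus varied less between ZEB1 libraries than most such genes. At 8, 15 and 25 counts of R3HDM2 in ZEB1 replicates 1, 2 and 3, counting error is wide. A small SD is then no sign of a steady level. In the controls the SD was 0.29 for R3HDM2, 0.38 for R3HDM4 and 0.36 for R3HDM1, each above the median of its peers (0.24, 0.28 and 0.23). Over the 6 libraries the members did not follow one another. Pearson's r of log2 CPM was -0.26 for R3HDM1 with R3HDM2, -0.37 for R3HDM1 with R3HDM4 and 0.33 for R3HDM2 with R3HDM4, as descriptions of libraries that share group and depth.

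The other genes with an R3H domain are a list of 9, of which 7 had enough counts to be tested. None passed the edgeR threshold in either direction, none passed in limma-voom, and DESeq2 gave none of the 7 an adjusted p. At an unadjusted edgeR p under 0.05 there were 0 higher and 2 lower, where 9.4% of all tested genes reach that p. All 7 log2 fold changes lay below 0, with a median of -0.21 beside -0.01 over all tested genes. In 3 of the 7, R3HCC1, IGHMBP2 and NKRF, the 3 ZEB1 libraries lay below the 3 controls, as in 8.17% of all tested genes. Their values were smaller in size than that of R3HDM2, which was itself chosen on this contrast. The difference between the genes was not tested.

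IGHMBP2, a helicase whose loss causes a motor neuron disease, had 34.7, 42.1 and 35.6 CPM in control replicates 1, 2 and 3. It had 19.5, 16.6 and 25.8 CPM in ZEB1 replicates 1, 2 and 3, for a log2 fold change of -0.83 (SE 0.29, edgeR adjusted p = 0.309). NKRF, an RNA-binding protein first described as a repressor of NF-kappaB, had 34.7, 34.3 and 25.7 CPM in the controls. With the ZEB1 vector it had 16.8, 14.1 and 22.3 CPM, for a log2 fold change of -0.80 (SE 0.31, edgeR adjusted p = 0.411). These were the 2 genes of the list with an unadjusted p under 0.05, and neither passed the threshold over all genes.

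R3HCC1, an R3H and coiled-coil protein, had 58.1 to 66.9 CPM under the control vector against 52.2 to 56.7 CPM under the ZEB1 vector, for a log2 fold change of -0.16 (SE 0.21). Its paralogue R3HCC1L had -0.13 (SE 0.37) with overlapping libraries. PARN, which removes poly(A) tails, had -0.22 (SE 0.24), and the zinc finger protein NFX1 had -0.21 (SE 0.27). YTHDC2, a helicase that reads methylated adenosine in RNA, had -0.19 (SE 0.43), and its ZEB1 libraries ran from 6.19 to 29.4 CPM. R3HDML had 0 counts in every library. ARPP21, the SUZ and R3H relative of R3HDM1 and R3HDM2, had 1, 0 and 11 counts under the control vector and none under the ZEB1 vector, too few at this depth for a change to be detectable. SZRD1, which has a SUZ domain and no R3H domain, averaged 214 ± 15.4 CPM under the control vector and 193 ± 28.99 CPM under the ZEB1 vector (± SD, n = 3 libraries each), for a log2 fold change of -0.14 (SE 0.16).

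**Figure D3:**
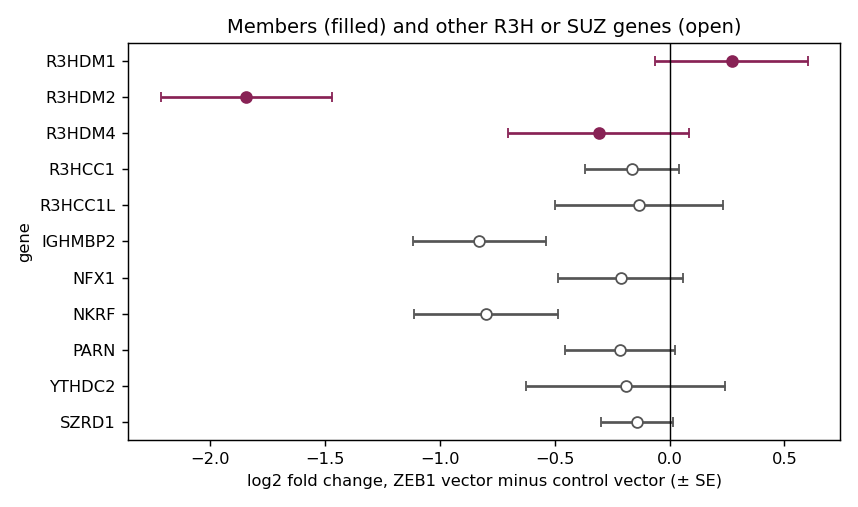
Log2 fold change, ZEB1 vector minus control vector (horizontal axis, bars are ± SE), of the members (filled) and of the tested genes with an R3H or SUZ domain (open). R3HDM2 lies at -1.84, IGHMBP2 and NKRF at -0.83 and -0.80, and the remaining genes between -0.31 and 0.27.

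RNA-binding proteins work beside the factors that shorten poly(A) tails, remove the cap or carry out microRNA silencing, and 3 lists of such factors were read beside R3HDM2. The CCR4-NOT complex, the main cytoplasmic deadenylase, had 11 of 11 subunits tested, 6 above and 5 below 0, with a median log2 fold change of 0.04. The catalytic subunit CNOT7 averaged 131 ± 5.57 CPM under the control vector and 162 ± 20.2 CPM under the ZEB1 vector (± SD, n = 3 libraries each), for a log2 fold change of 0.30 (SE 0.16). The scaffold CNOT1 had -0.11 (SE 0.19) and CNOT2 had -0.12 (SE 0.20). None of the 11 passed in edgeR, and none was called by limma-voom. None had an unadjusted edgeR p under 0.05, where 9.4% of all tested genes did. DESeq2 gave 1 of the 11 an adjusted p and called 0.

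Of 23 factors of deadenylation, decapping and poly(A) binding, 20 were tested, 9 above and 11 below 0, with a median of -0.02. The poly(A)-binding genes PABPC1 and PABPC4 stood at -0.08 (SE 0.14) and -0.32 (SE 0.18), and the antiproliferative deadenylation adaptor TOB2 had 0.16 (SE 0.19). None of the 20 passed in edgeR or limma-voom, and DESeq2 gave 4 of them an adjusted p and called 0. PAN3 (1.67, SE 0.57), a subunit of the PAN2 deadenylase, and LSM1 (0.49, SE 0.23), of the decapping activator ring, were the 2 above 0 with an unadjusted p under 0.05, named after their values were seen. Over all tested genes 9.4% had an unadjusted edgeR p under 0.05. PAN3 had 12, 18 and 56 counts under the control vector, which is 1.92, 3.27 and 9.10 CPM. Under the ZEB1 vector it had 19, 24 and 47 counts, which is 16.8, 15.4 and 13.9 CPM. Of the 20 genes, 2 had all ZEB1 libraries above the controls and 3 all below, against 6.96% and 8.17% of all tested genes. The 13 genes of microRNA processing and silencing were all tested, 7 above and 6 below 0, with a median of 0.01. TNRC6A, TNRC6B and XPO5, the most counted of them, had 0.01 (SE 0.16), 0.13 (SE 0.19) and -0.09 (SE 0.20). None of the 13 passed in edgeR or limma-voom, and DESeq2 gave 2 of them an adjusted p and called 0. TNRC6C (-1.03, SE 0.40), named after its values were seen, was the 1 gene with an unadjusted edgeR p under 0.05, beside the same 9.4%.

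The neighbours of R3HDM2 on chromosome 12 give its chromosomal setting. Of the 5 protein-coding genes on each side with a row in the table, 4 of 10 had enough counts to be tested. The lipoprotein receptor gene LRP1 had a log2 fold change of -0.06 (SE 0.43), the mitochondrial serine hydroxymethyltransferase gene SHMT2 -0.30 (SE 0.15) and the methionyl-tRNA synthetase gene MARS1 -0.10 (SE 0.19). NXPH4, a neurexophilin, had 49, 34 and 82 counts under the control vector against 0, 4 and 29 under the ZEB1 vector, with -1.06 (SE 0.71). None of the 4 passed in edgeR or limma-voom, and 0 had an unadjusted edgeR p under 0.05, where 9.4% of all tested genes did. DESeq2 gave 2 of the 4, SHMT2 and MARS1, an adjusted p and called 0. The adjoining genes STAC3, 2.58 kb from one end of R3HDM2, and INHBC, 3.64 kb from the other, had at most 5 counts in any library. GLI1, a Hedgehog pathway transcription factor, had 6, 10 and 18 counts under the control vector and none under the ZEB1 vector. R3HDM2-DT, an RNA that RefSeq places on the other strand across the start of R3HDM2, was not among the rows of the table. The strand setting of the counting is not given in the sources used here, so reads from both strands there cannot be told apart.

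R3HDM1 had 6 of 10 neighbours tested, with log2 fold changes from -0.38 for RAB3GAP1 to 0.53 for CCNT2. ZRANB3, whose RefSeq end lies 0.266 kb from the start of R3HDM1, had 45, 38 and 31 counts under the control vector against 0, 5 and 34 under the ZEB1 vector. In CPM the ZEB1 libraries 1, 2 and 3 stood at 0, 3.2 and 10.1 and the controls at 5.04 to 7.19, so that replicate 3 was the highest library for ZRANB3 as for R3HDM1, with a log2 fold change of -0.34 (SE 0.76). UBXN4, on the far side, had 0.13 (SE 0.18) and MCM6 -0.18 (SE 0.28). For R3HDM4, 3 of 10 neighbours were tested. MED16, a Mediator subunit gene 3.32 kb away, had 0.17 (SE 0.30) and WDR18 had -0.38 (SE 0.18). ARID3A, a DNA-binding protein gene 12.5 kb away, had 45, 36 and 31 counts under the control vector against 1, 3 and 5 under the ZEB1 vector, with -2.07 (SE 0.83, edgeR adjusted p = 0.416). None of these 9 neighbours passed in edgeR or limma-voom. ARID3A and WDR18 had an unadjusted edgeR p under 0.05, as 9.4% of all tested genes did. DESeq2 gave 3 of the 9 an adjusted p and called 0.

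**Figure D4:**
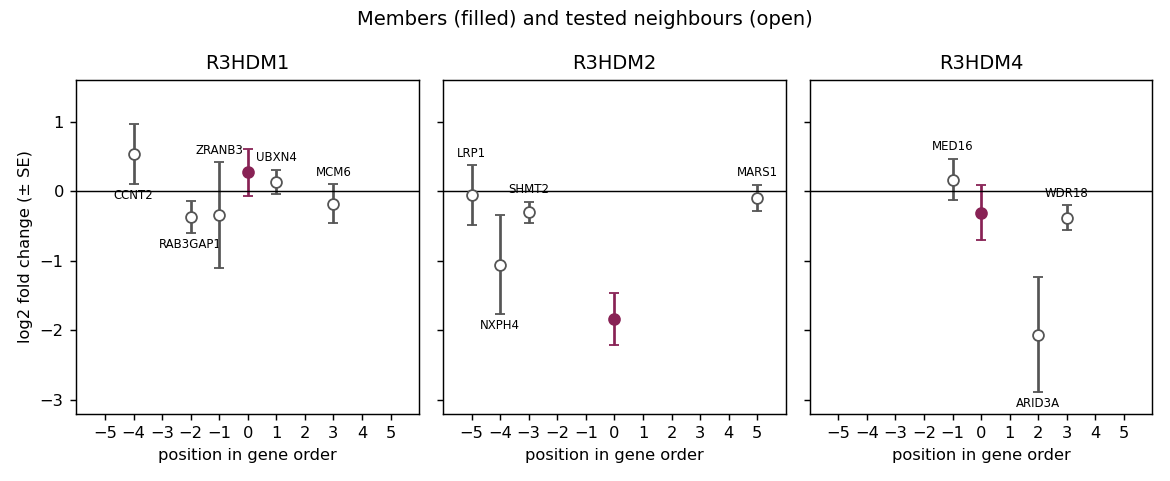
Log2 fold change (vertical axis, bars are ± SE) of R3HDM1, R3HDM2 and R3HDM4 (filled, position 0) and of the tested protein-coding neighbours reported here (open) by position in gene order along the chromosome (horizontal axis). R3HDM2 at -1.84, chosen on this contrast, lies below its 4 tested neighbours, which run from -1.06 to -0.06.

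The genes whose log2 CPM over the 6 libraries was most like that of each member were taken from the 7742 other tested genes whose mean count reached 50. For R3HDM2 these were C11orf68 (Pearson's r = 0.994), CREBZF (0.992), RSRC2 (0.986), KRT80 (0.985) and CCN2 (0.982). In all 5 the ZEB1 libraries lay below the controls, as in 8.17% of all tested genes. Their log2 fold changes were -0.86, -0.35, -0.44, -0.29 and -0.38, each smaller in size than that of R3HDM2. Both points follow largely from how the genes were picked. R3HDM2 separates the groups, and it had the lowest log2 fold change among tested genes of that mean count. C11orf68 had 209, 163 and 216 counts under the control vector against 18, 31 and 61 under the ZEB1 vector. For R3HDM1 they included GOLPH3L (0.978), KIRREL1 (0.963), ALKBH8 (0.959) and GTF2I (0.949), all with overlapping groups. For R3HDM4 they were EMC1 (0.968), VCAN (0.966), NUFIP1 (0.961), FIZ1 (0.952) and DNAJC4 (0.948), again with overlapping groups. No gene stood in more than 1 of these lists. The 6 points of each correlation share group and depth, and the highest of 7742 values are high by selection.

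The direction and size of the R3HDM2 difference were similar under the 18 alternatives tried. All of these reuse the libraries that singled R3HDM2 out, so the likeness is a description and no separate support. Its log2 fold change ran from -1.98 to -1.69, and the extremes came from leaving out control replicate 2 and control replicate 3. R3HDM4 ran from -0.60 to -0.12 and kept its sign, while R3HDM1 ran from -0.18 to 0.78 and changed sign without ZEB1 replicate 3. Library size as the only scaling moved the median of all tested genes by -0.13, and under it R3HDM2 had -1.97, R3HDM1 0.15 and R3HDM4 -0.44.

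**Figure D5:**
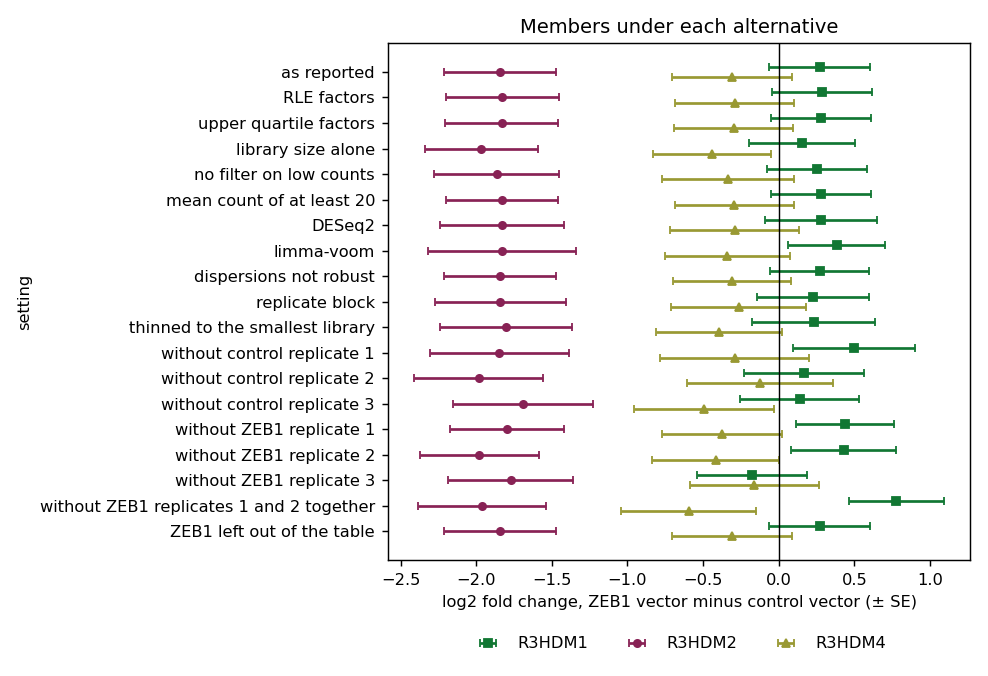
Log2 fold change, ZEB1 vector minus control vector (horizontal axis, bars are ± SE), of R3HDM1 (squares), R3HDM2 (circles) and R3HDM4 (triangles) as reported and under each alternative (vertical axis). R3HDM2 stays between -1.98 and -1.69, R3HDM4 between -0.60 and -0.12, and R3HDM1 spans 0. Every alternative reuses the libraries that singled R3HDM2 out.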

How the data were processed

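RNA of 6 libraries, 3 per vector, was measured by DRUG-seq. The authors deposited raw counts per Entrez gene, and HISAT2, featureCounts, Subread and GRCh38 are named without versions or roles in the submitters' processing notes. For the strand setting, the annotation release and any collapse of molecular identifiers nothing is given in the sources used here. Symbols came from a RefSeq table (GRCh38.p14) that matched 27745 of 28395 IDs. Depth was 5359200 to 5878640 counts in the controls and 1277632 to 3316228 with the ZEB1 vector, where 3 counts stand for 0.510 to 0.560 and 0.905 to 2.35 CPM before TMM scaling.

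The counts were fitted with edgeR 4.0.16 in R 4.3.3 (quasi-likelihood, robust, TMM, filterByExpr, group only, two-sided, Benjamini-Hochberg over 11329 genes). Standard errors are approximate (size of the log2 fold change over the root of F). Log2 CPM used a prior count of 2. DESeq2 1.42.0 and limma-voom (limma 3.58.1) were alternatives, beside other factors, filters, thinning, a replicate block and left-out libraries. The steps were also run on simulated counts, whose outcome is not reported here. Replicate pairs differed by more than sampling noise.

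The members and lists were chosen with earlier results of these data known. The text names the tested R3H and SUZ genes and neighbours, the 3 most counted tested genes of the other lists, and the 5 genes of mean count at least 50 most correlated with each member. Some genes that this rule names are not reported here. Sequences are RefSeq's. Promoter windows were found for all 3 members, and no protein sequence was used here.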

Additional observations from a re-analysis of the deposited data

How the results depend on the processing

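The count of genes past the edgeR threshold was 1 and rested on the setting. It was 127 with no filter on low counts, 174 with DESeq2, 58 with limma-voom, 2 without ZEB1 replicates 1 and 2 together, 0 with ZEB1 left out of the table, and 1 to 409 on leaving out single libraries, where 409 came without ZEB1 replicate 3. With ZEB1 left out edgeR called no gene. With it kept, 1065 genes had an unadjusted edgeR p under 0.05. The number of members called was 0, but 1 (R3HDM2) with no filter on low counts and 0 to 1 on leaving out single libraries, where R3HDM2 was called without ZEB1 replicate 3. DESeq2 gave 2324 genes an adjusted p and none of the 3 members. R3HDM1 had 0.78 without ZEB1 replicates 1 and 2 together. On leaving out single libraries R3HDM1 ran from -0.18 to 0.50, R3HDM2 from -1.98 to -1.69 and R3HDM4 from -0.49 to -0.12. The median of the other R3H genes was -0.40 to -0.14 on leaving out single libraries and -0.39 without ZEB1 replicates 1 and 2 together. The SUZ median was -2.31 with no filter, where ARPP21 enters. The decay factor median was -0.14 with library size alone and -0.15 to 0.038 on leaving out single libraries, and the microRNA pathway median was -0.23 without ZEB1 replicates 1 and 2 together. The cause of these shifts was not tested. With the replicate number as a block, the count of genes called was 1 and R3HDM2 had -1.84, R3HDM1 0.23 and R3HDM4 -0.27. Deviations of same-numbered libraries correlated at -0.03, -0.009 and 0.009. With 3 libraries per group of unlike depth, this cannot show whether same-numbered libraries were handled together. Depth limits R3HDM2 most in ZEB1 replicate 1, which held 8 counts of it.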
